A study of Homo sapiens with 4 samples.

Results

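The genes described here are 8 genes of cholesterol synthesis and its control: HMGCS1, MVD, IDI1, FDFT1, SQLE, DHCR7, INSIG1 and SREBF2. They were taken by name, and every line that the authors' deposited table assigns to one of them was used, which gave 25 regions of the 91107 distinct regions in the table. Coordinates are those of build hg38, which the submitters' processing notes name. Each region is a stretch of the genome where nucleosomes carry H3K27ac, the acetyl mark on lysine 27 of histone H3 that is found at active promoters and enhancers. The mark was mapped by ChIP-seq in A375, a long-established human melanoma line kept in DMEM with serum. The labels describe 4 libraries: 2 from cells that received 1 mM octanoate, which is a fatty acid of medium chain length, and 2 from cells that received only its vehicle, isopropanol. Treatment lasted 48 hours in both groups, and no other agent or genetic change is named.

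Cells make cholesterol from acetyl-CoA by a long chain of enzymes. Early steps build mevalonate and turn it into isoprenoid units, middle steps join these into squalene and oxidise it, and late steps close and trim the sterol rings. When sterols are scarce, the transcription factor SREBP2, the product of SREBF2, is carried to the Golgi, cut free and sent to the nucleus. There it binds sterol regulatory elements in the promoters of these enzyme genes, usually beside sites for NF-Y and Sp1. When sterols are plentiful, INSIG proteins hold the precursor in the endoplasmic reticulum. Octanoate can feed acetyl-CoA through oxidation, and acetyl-CoA is the starting material of both sterol synthesis and histone acetylation.

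The authors' deposited table reports a single comparison of the treatments. For each region it lists a normalized mean level, a fold change on the log2 scale with its error, and p-values, but nothing for a single library. Depth per library is unknown and the deposited standard error stands in for the spread. The labels do not say whether the libraries came from separate cultures, so the deposited p-values measure only the spread between these libraries. The header does not name the numerator, so fold changes are called positive or negative and not gains or losses with octanoate. The whole table leaned to the positive side: among the 36436 regions given an adjusted p-value per the authors' deposited table (called tested regions below), the median log2 fold change was 0.32 and 87.3% were positive. An adjusted p-value had not been computed for regions with a mean level of at most 18.44 per the authors' deposited table. Among melanocyte lineage genes, 3 of 6 (SOX10, PMEL and MITF) had a start region, at levels per kb of 41.2, 27.9 and 24.7 per the authors' deposited table, and MLANA, TYR and DCT had none. Of 9 marker genes of epithelial, leukocyte, endothelial or liver cells, 1 (EPCAM) had a start region, at 19.4 per kb per the authors' deposited table.

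Each of the 8 genes had exactly 1 region at distance 0, read as lying over its transcription start, and the other 17 regions lay elsewhere. In 6 of the genes RefSeq promoter sequence was matched, which is credited to RefSeq with build GRCh38.p14. For 4 of them the 250 bases before 1 RefSeq start are shown, because these stretches lie inside the acetylated start regions. That start is the one nearest to the start used in the table, or for MVD its only RefSeq start. SREBF2 and INSIG1 are each shown for a motif the others lack. MVD is shown for its 3 NF-Y matches and DHCR7 for the highest fold change among starts. Sequences run 5′ to 3′ on the gene's own strand, and capitals mark matches on either strand to 5 searched motifs: TCACNCCAC (the core of a sterol regulatory element), CCAAT (NF-Y), GGGCGG (the GC box bound by Sp1), CACGTG (E-box) and the direct repeat with a spacer of 1 base that PPAR and RXR bind (a PPAR response element).
SREBF2, chr22:41832855-41833104, plus strand: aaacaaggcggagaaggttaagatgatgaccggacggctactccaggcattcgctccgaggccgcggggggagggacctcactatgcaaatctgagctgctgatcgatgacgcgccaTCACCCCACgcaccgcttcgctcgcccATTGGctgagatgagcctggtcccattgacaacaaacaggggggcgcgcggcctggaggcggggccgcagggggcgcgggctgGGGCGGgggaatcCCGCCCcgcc
DHCR7, chr11:71448394-71448643, minus strand: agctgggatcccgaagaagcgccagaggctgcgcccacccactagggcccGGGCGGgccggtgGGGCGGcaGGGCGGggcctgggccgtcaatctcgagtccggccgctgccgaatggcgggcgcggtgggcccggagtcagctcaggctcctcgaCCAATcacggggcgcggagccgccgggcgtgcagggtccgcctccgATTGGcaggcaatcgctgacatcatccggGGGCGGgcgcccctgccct
INSIG1, chr7:155297628-155297877, plus strand: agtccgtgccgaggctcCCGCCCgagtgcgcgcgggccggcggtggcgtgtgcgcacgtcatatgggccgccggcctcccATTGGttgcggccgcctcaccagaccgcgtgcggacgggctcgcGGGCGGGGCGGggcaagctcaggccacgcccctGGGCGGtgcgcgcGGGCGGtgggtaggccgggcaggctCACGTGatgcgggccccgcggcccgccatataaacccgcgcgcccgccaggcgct
MVD, chr16:88663092-88663341, minus strand: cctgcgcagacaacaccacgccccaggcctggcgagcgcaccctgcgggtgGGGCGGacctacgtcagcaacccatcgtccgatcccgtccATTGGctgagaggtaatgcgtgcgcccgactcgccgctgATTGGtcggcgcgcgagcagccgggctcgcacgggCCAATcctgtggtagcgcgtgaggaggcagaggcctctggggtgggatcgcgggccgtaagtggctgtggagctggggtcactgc

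RefSeq gives these 6 genes 10 promoter windows, since HMGCS1, IDI1 and DHCR7 have more than 1 start. Of the 10 windows 7 held an NF-Y match and 9 a GC box, and of the 9 whose start lies in the gene's own start region 7 and 8 did. The windows without an NF-Y match were the inner one of HMGCS1 (start at 43313181), the outermost one of IDI1 (start at 1056704, outside the IDI1 start region) and the second of DHCR7 (start at 71449043), which had no GC box either. The 6 chosen windows, 1 per gene, each held at least 1 of both motifs, 11 NF-Y matches and 15 GC boxes in total. They were chosen by nearness to the start used in the table, except at MVD. The single MVD region gives no such start, so its only RefSeq start was taken. Over all 35116 promoter windows of the same length, 32.0% held an NF-Y match and 42.6% a GC box. Among the 11114 windows whose RefSeq start lies in a start region of the same gene, the shares were 33.5% and 69.7%. The SREBF2 promoter had the single match to the sterol regulatory element core, beginning 133 bases before the start, with an NF-Y match beginning at 106 bases. That core was found in 0.883% of all windows and in 0.900% of those in a start region. The E-box was found in INSIG1, beginning 55 bases before the start, and in 6.34% of all windows. INSIG1 held 5 GC boxes, of which 2 overlap by a single base. MVD held 3 NF-Y matches. No match to that PPAR response element was found in the 10 windows, and 0.0171% of all windows held one. A match describes letters and not binding, and the lack of one says only that these letters are absent from the window. The 10 windows had a GC content of 55.6% (the second DHCR7 window) to 78.4%, and the 6 chosen ones of 66 to 78.4%, against medians of 58% for all windows and 65.6% for those in a start region.

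**Figure D1:**
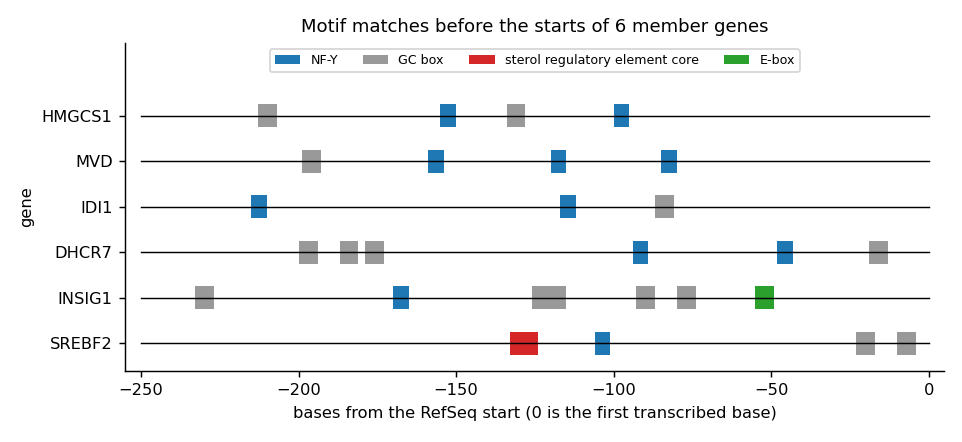
Positions of motif matches in the 250 bases before 1 RefSeq start in each of 6 genes (horizontal axis in bases from the start, 1 line per gene). That start is the one nearest to the start used in the table, or for MVD its only RefSeq start. Blue blocks are NF-Y matches, grey blocks GC boxes, the red block in SREBF2 the sterol regulatory element core and the green block in INSIG1 the E-box; the 6 windows drawn carry blue and grey blocks, and the other 4 windows of these genes are not drawn.

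No region of the 8 genes passed the authors' test. Of the 25 regions, 12 had an adjusted p-value per the authors' deposited table (8 at starts and 4 elsewhere), and 0 of these were under 0.05. Of all tested regions 1.67% were called, 0.860% of those at starts and 1.97% of those elsewhere. At an unadjusted p-value under 0.05 the count was 2, both at starts and both positive, against 19.2% of tested start regions in either direction per the authors' deposited table. The smallest adjusted p-value was 0.195, at DHCR7, per the authors' deposited table. All 8 start regions had a positive log2 fold change, from 0.22 to 0.61 with a median of 0.38, and so did 98.1% of the 9996 tested start regions per the authors' deposited table, whose median was 0.35. Read against that background, 5 of the 8 lay above the median of starts and 3 below it.

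**Figure D2:**
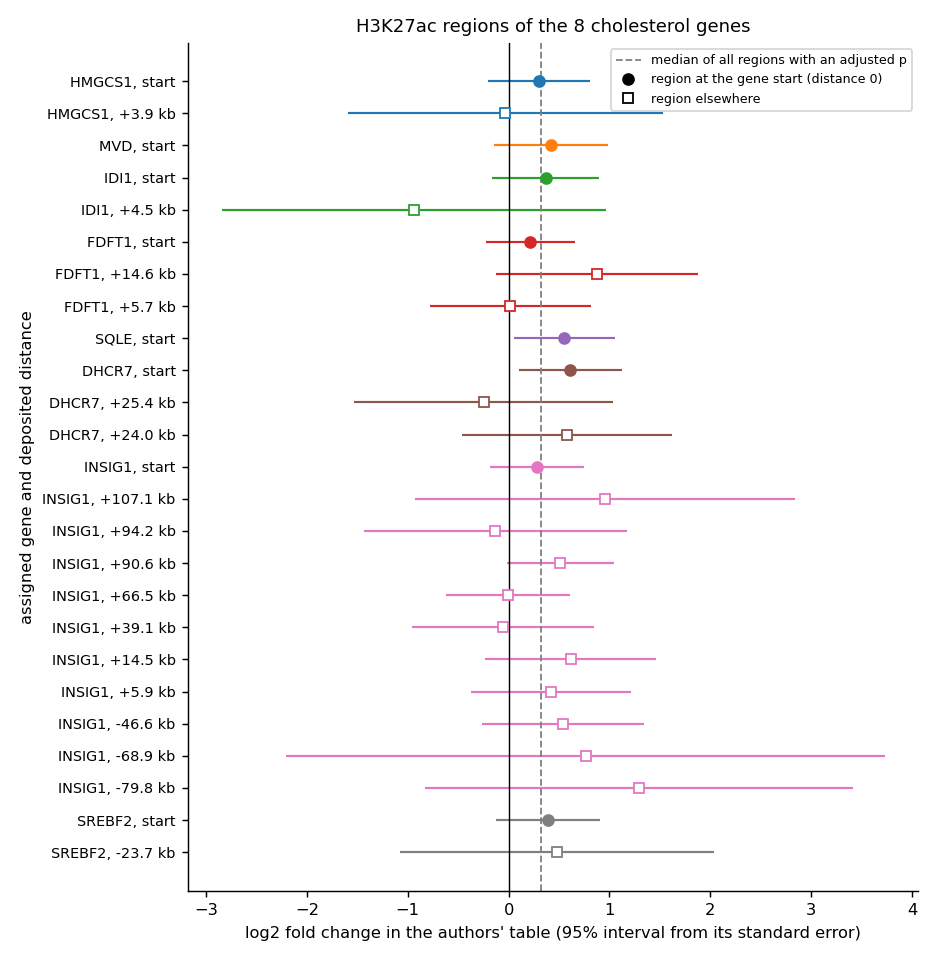
The log2 fold change of each of the 25 regions (horizontal axis) with its 95% interval from the authors' standard error, by gene and deposited distance (vertical axis); filled circles are start regions and open squares other regions. The intervals of 23 regions include 0, and the start regions of DHCR7 and SQLE are the exceptions. Those of DHCR7 (0.10 to 1.12) and SQLE (0.06 to 1.05) both include the median of tested start regions, 0.35.

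Mevalonate pathway. HMGCS1 encodes the cytosolic enzyme that condenses acetyl-CoA with acetoacetyl-CoA, an early step of mevalonate synthesis. Its start region (chromosome 5, 43311812 to 43315441) had a mean level of 72.5 and a log2 fold change of 0.30 ± 0.26 (standard error; adjusted p-value 0.476) per the authors' deposited table, just under the median of starts. The other HMGCS1 region, 223 bases wide and inside the RefSeq gene span, had a level of 4.37 and a log2 fold change of -0.03 ± 0.80 per the authors' deposited table. MVD encodes the decarboxylase that makes isopentenyl diphosphate, the building block of isoprenoids. Its single region (chromosome 16, 88661899 to 88664198), at the start, had a level of 64.0 and a log2 fold change of 0.42 ± 0.29 (adjusted p-value 0.389) per the authors' deposited table. It was the narrowest start region of the 8, at 2299 bases, and the densest, at 27.8 per kb per the authors' deposited table.

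IDI1 encodes the isomerase that turns isopentenyl diphosphate into its reactive partner. The IDI1 start region (chromosome 10, 1047670 to 1051429) had a level of 72.0 and a log2 fold change of 0.37 ± 0.27 (adjusted p-value 0.418) per the authors' deposited table. It is the 1 region of the 25 that the table also lists with another gene, WDR37, at distance 0 to both, so its acetylation cannot be given to IDI1 alone. A second region listed only with WDR37 (chromosome 10, 1054475 to 1059000) covers the outermost of the 3 RefSeq starts of IDI1, at 1056704, and had a log2 fold change of 0.28 ± 0.25 and a level of 91.5 per the authors' deposited table. The other IDI1 region, 200 bases wide inside the gene span, had the most negative log2 fold change of the 25, -0.94, but a level of 2.76 and an error of 0.97 (standard error) per the authors' deposited table. Its 95% interval ran from -2.85 to 0.96.

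Squalene synthesis and oxidation. FDFT1 encodes squalene synthase, which joins farnesyl units at the branch point towards sterols. Its start region (chromosome 8, 11801694 to 11810591) was the widest of the 8 start regions, 8897 bases, and had the highest level, 174, and the lowest log2 fold change, 0.22 ± 0.23 (adjusted p-value 0.557) per the authors' deposited table. Per kb, the FDFT1 level of 19.5 was close to that of HMGCS1, 20.0, per the authors' deposited table. The distances of its other regions point to a start at 11802739, whereas the RefSeq gene span begins at 11795582. A region counted as 5711 bases away (11795547 to 11797028) therefore covers the RefSeq beginning of the gene. That region had a level of 19.9 and a log2 fold change of 0.02 ± 0.41 per the authors' deposited table. Another FDFT1 region, 14617 bases away and below the gene span, had a level of 10.6 and a log2 fold change of 0.88 ± 0.51 with an unadjusted p-value of 0.0876 per the authors' deposited table. SQLE encodes squalene epoxidase, a rate-controlling step that consumes oxygen. Its single region (chromosome 8, 124997576 to 125002183), at the start, had a level of 90.1 and a log2 fold change of 0.55 ± 0.25 per the authors' deposited table. The p-value of the SQLE region was 0.0288 before and 0.224 after adjustment per the authors' deposited table, and its fold change stood at percentile 83.6 of tested start regions.

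Late sterol steps. DHCR7 encodes the reductase that makes cholesterol from its last precursor, 7-dehydrocholesterol. Its start region (chromosome 11, 71447692 to 71450429) had the highest fold change of the 8 starts, a log2 value of 0.61 ± 0.26 or a ratio of 1.53, at a level of 65.1 per the authors' deposited table. The 95% interval of the ratio ran from 1.07 to 2.18. The unadjusted p-value was 0.0192 and the adjusted one 0.195 per the authors' deposited table, and the fold change stood at percentile 88.5 of tested start regions. The region spans both RefSeq starts of DHCR7, at 71448393 and 71449043, and the promoter shown above belongs to the first of these. Regions 24025 and 25357 bases away, past the other end of the gene, had levels of 10.2 and 6.15 and log2 fold changes of 0.58 ± 0.53 and -0.25 ± 0.66 per the authors' deposited table. The signs of these values differ, and their intervals overlap widely.

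Regulators. SREBF2 encodes the transcription factor SREBP2 itself, and the promoter shown above carries the sterol regulatory element core. The SREBF2 start region (chromosome 22, 41831869 to 41835112) had a level of 76.6 and a log2 fold change of 0.39 ± 0.26 (adjusted p-value 0.386) per the authors' deposited table, close to the median of starts. A region of 217 bases inside the gene, 23724 bases away, had a level of 4.01 and a log2 fold change of 0.48 ± 0.80 per the authors' deposited table. INSIG1 encodes the sterol-sensing anchor that keeps the SREBP precursor in the endoplasmic reticulum, and it is itself a target of SREBP. The INSIG1 start region (chromosome 7, 155296342 to 155301668) had a level of 122 and a log2 fold change of 0.28 ± 0.24 (adjusted p-value 0.468) per the authors' deposited table.

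INSIG1 was the gene with the most regions, 11 of the 25, and 10 of these lay away from its start: 7 upstream, up to 107102 bases, and 3 downstream, up to 79757 bases. The authors' assignment does not show which gene a distant region serves. At INSIG1 36.4% of the summed level lay at the start per the authors' deposited table, against 80.0% at DHCR7, 85.1% at FDFT1 and 94.3 to 96.3% at HMGCS1, SREBF2 and IDI1. One upstream region (155204481 to 155207331), 90558 bases away, had a level of 90.2, or 31.7 per kb, per the authors' deposited table. That density was above the 22.9 per kb of the INSIG1 start, was the highest of the 25 regions, and stood at percentile 98.6 of all regions away from starts. Its log2 fold change was 0.51 ± 0.27, with p-values of 0.0588 before and 0.287 after adjustment, per the authors' deposited table. A neighbour 66522 bases away (155228300 to 155231367), with a level of 41.5, had a log2 fold change of -0.01 ± 0.31 per the authors' deposited table. The remaining tested distant region, downstream at 46604 bases, had 0.54 ± 0.41 at a level of 19.2 per the authors' deposited table. The other 7 INSIG1 regions had levels from 1.39 to 18.4, no adjusted p-value, and log2 fold changes from -0.13 to 1.29 per the authors' deposited table.

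**Figure D3:**
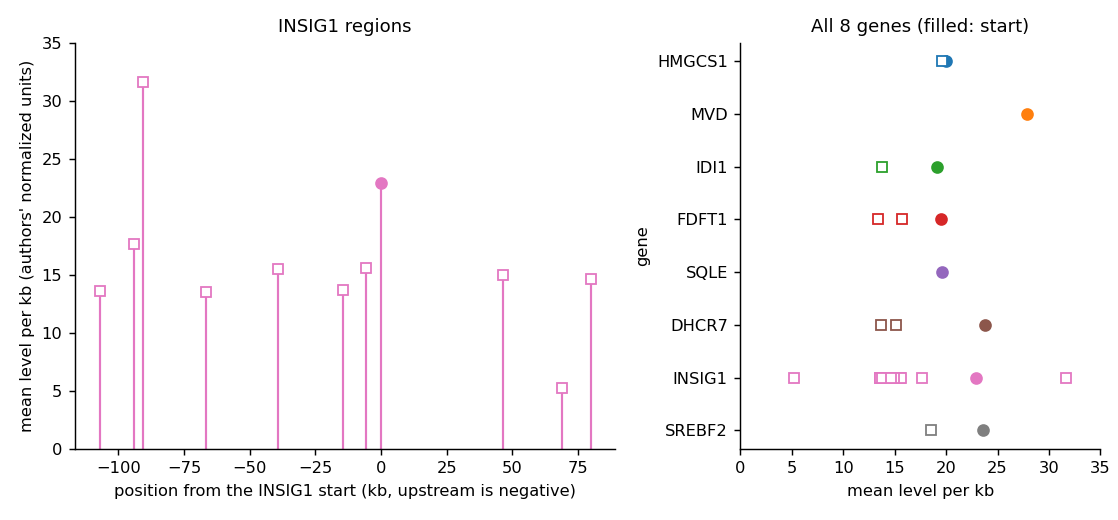
Left, mean level per kb of the 11 INSIG1 regions (vertical axis, authors' normalized units) by position from the gene start in kb (horizontal axis); right, the same quantity for all 25 regions by gene, with start regions filled. The open square near 90.6 kb upstream stands at 31.7 per kb, above the filled start at 22.9, and the start regions of the 8 genes lie between 19.1 and 27.8.

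Start and other regions were compared over the 8 genes as a description. Start regions had a median width of 3694 bases and a median level of 21.4 per kb per the authors' deposited table, and the others 672 bases and 15.0 per kb. Over all tested start regions the medians were 3316.5 bases and 25.8 per kb per the authors' deposited table. Those over all regions away from starts were 732 bases and 14.7 per kb. The standard error ran from 0.23 to 0.29 at starts and from 0.27 to 1.51 elsewhere per the authors' deposited table. The median log2 fold change was 0.38 at starts and 0.48 elsewhere per the authors' deposited table, but the signs were less uniform elsewhere, with 11 positive and 6 negative. Among tested regions only, the order was reversed: the 8 starts had a median of 0.38 and the 4 regions elsewhere 0.26. The 13 regions elsewhere without an adjusted p-value had a median of 0.48, at a median level of 5.72. The 7 regions elsewhere that belong to genes other than INSIG1 had a median of 0.02, and the 10 of INSIG1 a median of 0.52, per the authors' deposited table. Over all 80465 regions away from starts the median was 0.25, and 70.5% were positive per the authors' deposited table. The levels of the 8 start regions stood between percentiles 31.4 and 85.3 of tested start regions. Their levels per kb stood between percentiles 20.3 (IDI1) and 62.0 (MVD) of all start regions.

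**Figure D4:**
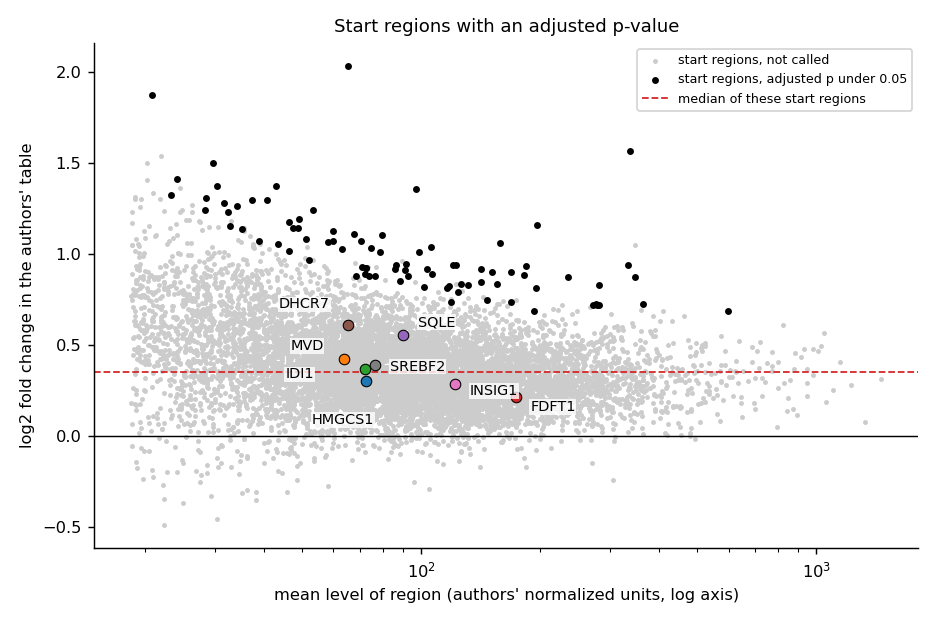
Log2 fold change (vertical axis) against mean level (horizontal log axis, authors' normalized units) for the 9996 start regions with an adjusted p-value; black points have an adjusted p-value under 0.05 and the red dashed line is the median of 0.35. The 8 named genes lie inside the grey cloud between 0.22 and 0.61, below the black points.

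The observed fold change that the authors' test needed for a call at these regions follows from their standard errors. The largest unadjusted p-value that was still called was, per the authors' deposited table, 0.000831. At the standard errors of the 8 start regions this corresponds to a log2 fold change of at least 0.76 (FDFT1) to 0.97 (MVD), or ratios from 1.69 to 1.95. Smaller observed fold changes at these starts would not have been called at these standard errors. How often a true change of a given size would be called was not tested. The 13 regions elsewhere without an adjusted p-value could not be called in the authors' deposited table at any fold change. For these the same calculation, as a gauge of their errors only, gives at least 1.35 on the log2 scale. The closest called region of the authors' deposited table lay between 269 kb (SQLE) and 5571 kb (HMGCS1) from the start regions of the 8 genes, with a median of 1279 kb.

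How far a start region reached to each side was measured in the 6 genes with a promoter entry, from the midpoint of the RefSeq starts it covers. In 3 of the 6 genes (INSIG1, SREBF2 and MVD) the region reached further downstream than upstream, and in DHCR7, HMGCS1 and IDI1 further upstream. MVD was close to even, with 1192 bases downstream and 1107 upstream. From the 2 DHCR7 starts taken singly, the region reached 2036 upstream and 700 downstream, or 1386 and 1350. The IDI1 region is also listed at distance 0 to WDR37, so its reach cannot be given to IDI1 alone. Over 8864 start regions of all genes with such an entry, 74.0% reached further downstream. INSIG1 was the most lopsided of the 6 by bases, with 3790 downstream and 1536 upstream.

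Other genes of the pathway were taken from 5 lists. Among 16 other enzymes of cholesterol synthesis, 0 of 33 tested regions were called per the authors' deposited table. Of all tested regions 1.67% were called, so a count of 0 in so few regions is near that share. At an unadjusted p-value under 0.05 the count was 6 (5 positive and 1 negative), or 18.2% of them, against 18.4% of all tested regions. Their 15 start regions all had positive log2 fold changes with a median of 0.31, from 0.11 at EBP, a sterol isomerase, to 0.82 ± 0.28 at MSMO1, an oxidase of sterol demethylation (adjusted p-value 0.0916) per the authors' deposited table. Among 11 genes of sterol sensing and SREBP processing, 0 of 17 tested regions were called per the authors' deposited table, again near the share of 1.67%. At an unadjusted p-value under 0.05 there were 3, per the authors' deposited table. The lowest start region of these was that of MBTPS1, the protease that makes the first cut in SREBP, with a log2 fold change of 0.12 per the authors' deposited table.

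Uptake and intracellular transport, 12 genes, had 1 of 39 tested regions called, positive, per the authors' deposited table, where 1.65% of tested regions were positive calls. The called region lay 49317 bases from the start of VLDLR, a lipoprotein receptor (chromosome 9, 2570669 to 2572517). It had a log2 fold change of 1.23 ± 0.35, a level of 28.1 and an adjusted p-value of 0.0380 per the authors' deposited table. VLDLR also had the highest start region of that list, 0.84 ± 0.28 (adjusted p-value 0.0954), and MYLIP, a ligase that marks lipoprotein receptors for breakdown, the lowest, 0.18, per the authors' deposited table. Efflux and storage, 9 genes, had 2 of 28 tested regions called, both positive, per the authors' deposited table. Both lay distant from the start of ABCA1, the cholesterol exporter. The first (chromosome 9, 104788796 to 104794566) had 0.97 ± 0.24 on the log2 scale with an adjusted p-value of 0.0114, and the second (105052744 to 105055381) 1.07 ± 0.30 with 0.0301, per the authors' deposited table. Their distances from the ABCA1 start were 133672 and -124507 bases, where a positive sign places the start at higher coordinates, and that start itself had the lowest log2 fold change of its list, 0.15 ± 0.23, per the authors' deposited table. NCEH1, a cholesteryl ester hydrolase, had the highest start of the list, 0.53, per the authors' deposited table. Fatty acid synthesis and desaturation, 14 genes, had 1 of 42 tested regions called, positive, per the authors' deposited table. It lay at a distance of -14011 bases from the start of ACSS2, which makes acetyl-CoA from acetate. Its log2 fold change was 1.05 ± 0.31 with an adjusted p-value of 0.0442 per the authors' deposited table. Starts of that list ran from 0.18 at SCD, a desaturase, to 0.67 ± 0.23 at ELOVL1, an elongase of very long chains (adjusted p-value 0.0922) per the authors' deposited table. At an unadjusted p-value under 0.05 the counts were 12 for uptake and transport (30.8% of the tested regions of that list), 10 for efflux and storage (35.7%) and 6 for fatty acid synthesis (14.3%), against 18.4% of all tested regions, and 17.6% for sterol sensing and SREBP processing. These counts take several regions of a gene separately. Among tested start regions, 1 per gene, the counts were 3 of 10 for uptake and transport, 0 of 6 for efflux and storage and 3 of 13 for fatty acid synthesis. They were 3 of 15 for the other synthesis enzymes and 1 of 11 for sterol sensing and SREBP processing. The share of all tested start regions was 19.2%, and with so few starts these counts do not set the lists apart. All 4 called regions of the 5 lists lay away from starts, and 0 of them passed once the table's median of 0.32 was subtracted from the fold changes, after which 0.124% of all tested regions passed.

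**Figure D5:**
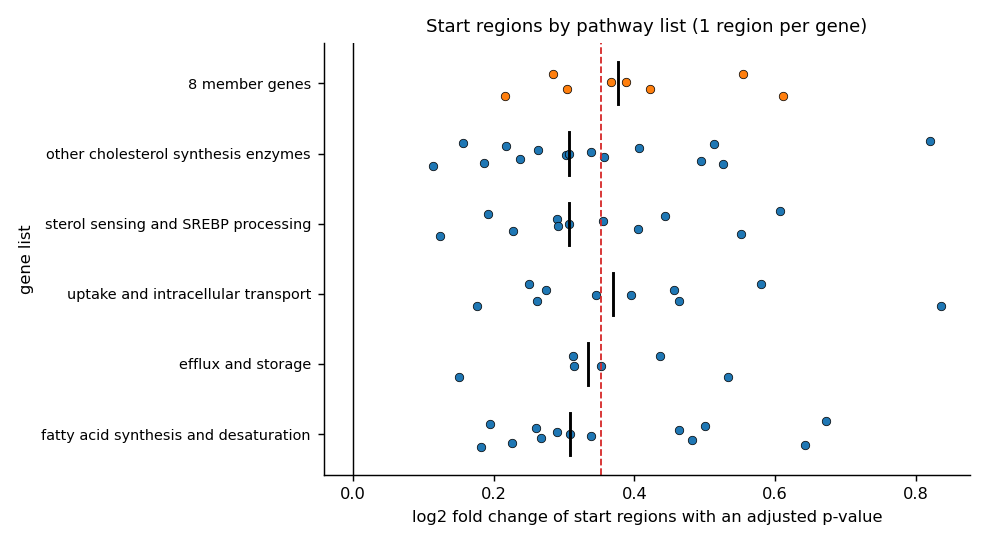
Log2 fold change of start regions with an adjusted p-value (horizontal axis), 1 point per gene, for the 8 genes (orange) and the 5 pathway lists (blue), with a black bar at each median and a red dashed line at the median of all tested start regions, 0.35. The list medians lie between 0.31 and 0.38, and all points are above 0.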

How the data were processed

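H3K27ac libraries of A375 cells (2 vehicle, 2 octanoate per the labels) were compared by the authors in 1 deposited table. The submitters' processing notes name Trim Galore, cutadapt, FastQC, Bowtie2, Picard, MACS2, featureCounts, DESeq2, bedtools 2.29.1 and build hg38, with no role or order; whether peaks were called on pooled libraries is not given in the sources used here. Per the file headers, the mean level is a normalized signal, and the fold change and its standard error are on the log2 scale. The statistic is a score per the file headers, and the p-value per the file headers equalled its two-sided normal p-value to within 4.47e-15. The deposited adjusted p-value 1 was read as not computed, since Benjamini-Hochberg adjustment over the other 36436 regions gave the deposited values back. Distances, per the file headers in bases, gave the same start from both sides in all 5815 genes with regions on both sides if region starts count from 0; coordinates are printed as deposited.

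Repeated lines of a region were merged (95312 lines, 91107 regions). Intervals (95%) are normal intervals from the deposited standard errors. No test was refitted, because the table holds no value per library, and columns of single libraries left out numbered 0. Lists were described by counts and medians. Of the lists' genes, those named had a called region or the highest or lowest start region with an adjusted p-value. Motifs were searched in RefSeq promoters (GRCh38.p14) with pandas 2.3.3. The genes and lists were chosen with earlier results of these data known. Exons and introns were not analysed here. One result that the rule for named genes would give is not reported here.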

Additional observations from a re-analysis of the deposited data

How the results depend on the processing

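The count of 0 called regions among the 8 genes held with an adjusted p-value under 0.01, with adjustment over all distinct regions or all lines, with levels under 10 left out, and after centring on either median; an unadjusted p-value under 0.05 gave 2. The median log2 fold change of the 25 regions was 0.42, lay between 0.38 and 0.43 under filters on level, gene medians and leaving out each gene, and was 0.10 after centring on the median of tested regions. The share of positive regions was 76%, 88.2% with levels under 10 left out, 91.7% among tested regions only and 60% after centring. Over all 91107 regions, before any filter or centring, 73.7% were positive and the median log2 fold change was 0.28. After centring on the median of tested regions, 5 of 8 start regions stayed positive, and HMGCS1 (-0.019), INSIG1 (-0.039) and FDFT1 (-0.11) turned negative. Centring on the median of start regions, chosen after seeing the data, also left 5 positive, with -0.049, -0.069 and -0.14 for these genes; the cause is the subtraction itself. Taking the widest region at distance 0, or distances of at most 1000 bases, changed nothing, since each gene had a single such region. The median at starts less that elsewhere was -0.10, and -0.13 with levels under 10 left out. Among tested regions only, the order was reversed, with medians of 0.38 at starts and 0.26 elsewhere. Of the 4 called regions of the pathway lists, 1 passed with adjustment over all distinct regions, 0 after centring and 0 among start regions only. No paired analysis was possible because the table gives only pooled values, and leaving out a library was not possible for the same reason.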
